A study of Mus musculus with 30 samples.

Results

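The comparison described here is cannabidiol (CBD) at 1.5 µM against its vehicle after 24 h, in 6 of the 30 libraries of the series. The 3 CBD libraries carry the authors' names A19, A20 and A21, the 3 vehicle libraries A28, A29 and A30, and both sets were chosen by the treatment label alone. All cells were mHypoA-2/12, an immortalized line from the hypothalamus of the adult mouse that was purchased and is a single line, so it stands for no other animal or line. The other 24 libraries hold CBD at 0.325, 0.75 and 3 µM after 24 h and the vehicle and the same 4 doses after 6 h, with 3 libraries in each of the 10 groups. Every CBD culture received DMSO to 0.1% of the medium, and the vehicle cultures received 0.1% DMSO without CBD. Nothing in the labels or the methods says whether the 3 libraries of a group came from separate passages, so the p-values measure the spread between these libraries, which may be technical.

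CBD is a plant cannabinoid that does not intoxicate and that binds weakly, or not at all, at the orthosteric site of the cannabinoid receptors. Serum amyloid A proteins, chemokines and interleukin antagonists are the secreted end of the acute-phase response, which NF-kB, C/EBP and STAT factors switch on in many cell types. Immediate signals through MAP kinases are ended by dual-specificity phosphatases, and collagenases of the matrix metalloproteinase family are classic late targets of the same kinases through AP-1.

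Of 12118 genes tested, 5 were higher in CBD than in vehicle and 0 were lower at an adjusted p (FDR) below 0.1 in the quasi-likelihood test of edgeR, which is 0.0413% of the genes. The 5 genes were *Saa3*, *Dusp1*, *Elp6*, *Amotl2* and *Mmp13*. DESeq2 called 19 genes, these 5 among them, of which 15 were higher and 4 lower, and edgeR fitted on the 6 libraries alone called 16, of which 10 were higher and 6 lower. Below, a gene is said to pass or not to pass by the edgeR fit over the 15 libraries of 24 h, and the calls of DESeq2 are given beside it. Without adjustment, 438 genes had p below 0.05 in the higher direction, or 3.61%, and 451 in the lower direction, or 3.72%. All 3 CBD libraries lay above all 3 vehicle libraries in 809 genes, or 6.68%, and below them in 779 genes, or 6.43%. The median log2 fold change of CBD over vehicle across all genes was 0.00.

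**Figure D1:**
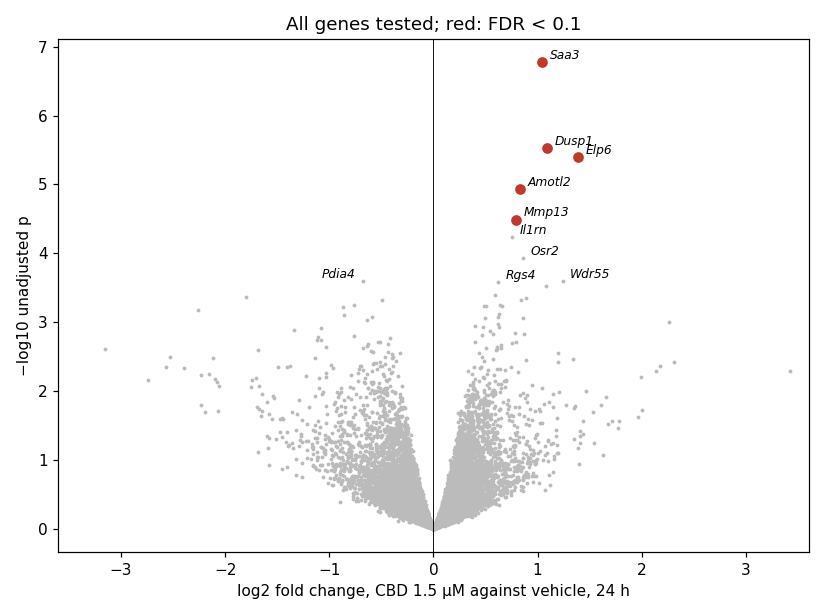
Each point is 1 of the 12118 genes tested, with the log2 fold change of CBD 1.5 µM over vehicle at 24 h on the x axis and −log10 of the unadjusted p on the y axis. The 5 genes that passed an FDR of 0.1 are in red, all to the right of 0 with log2 fold changes from 0.79 to 1.39, and the named grey genes did not pass.

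*Saa3* encodes serum amyloid A3, an acute-phase protein that fibroblasts, adipocytes and macrophages make outside the liver. Its level, in scaled counts per 1e6 reads on genes (CPM), was 1104, 855 and 841 CPM in the CBD libraries and 522, 449 and 388 CPM in the vehicle libraries. The lowest CBD library lay well above the highest vehicle library. The means were 933 ± 148 CPM (SD, n = 3) and 453 ± 67.4 CPM (SD, n = 3), and the log2 fold change was 1.04 (standard error 0.15, edgeR FDR = 0.00203). *Saa3* (ENSMUSG00000040026) lies on chromosome 7 from 46711998 to 46715700 on the minus strand of GRCm38. It is close in sequence to *Saa1* and *Saa2*, and reads that align to several of them were not counted, so the split of reads among the 3 genes is uncertain.

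*Dusp1* encodes a phosphatase that inactivates MAP kinases. Its level was 109.5, 107 and 66.6 CPM with CBD and 49.1, 41.2 and 41.2 CPM with vehicle. The third CBD library was nearer to the vehicle libraries than to the other two. The means were 94.5 ± 24.2 and 43.8 ± 4.56 CPM (SD, n = 3 each), with a log2 fold change of 1.09 (standard error 0.19, edgeR FDR = 0.016). The annotated gene (ENSMUSG00000024190, chromosome 17, 26505590 to 26562128, minus strand, GRCm38) overlaps the start of *Ergic1* and the pseudogene *Gm8225* on the opposite strand, and the pseudogene *AC122252.4* and the intronic transcript *AC122252.1* on its own strand.

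*Elp6* encodes a subunit of Elongator, the complex that modifies wobble uridines of transfer RNAs. It stood at 83.4, 67.2 and 85.0 CPM with CBD and at 28, 28 and 34.3 CPM with vehicle. No vehicle library came near the lowest CBD library. The log2 fold change was 1.39 (standard error 0.24, edgeR FDR = 0.016), the largest of the 5, between means of 78.5 ± 9.83 and 30.1 ± 3.64 CPM (SD, n = 3 each). The gene (ENSMUSG00000054836) occupies chromosome 9 from 110305173 to 110322102 on the plus strand of GRCm38 and overlaps no other annotated gene.

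*Amotl2* encodes a scaffold of the angiomotin family that holds YAP at cell junctions and is itself a YAP target. The CBD libraries read 224, 218 and 209 CPM and the vehicle libraries 133, 117 and 115 CPM. Both groups were tight, and they did not overlap. The means were 217 ± 7.72 and 122 ± 9.92 CPM (SD, n = 3 each), with a log2 fold change of 0.83 (standard error 0.16, edgeR FDR = 0.0349). The gene (ENSMUSG00000032531) is on chromosome 9, 102716672 to 102733418, plus strand, GRCm38.

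*Mmp13* encodes collagenase 3, a secreted protease of fibrillar collagens. It was measured at 544, 442 and 516 CPM with CBD and at 339, 244 and 285 CPM with vehicle. Every CBD library exceeded every vehicle library, though the first vehicle library was the highest of its group. With means of 501 ± 52.9 and 289 ± 47.9 CPM (SD, n = 3 each), the log2 fold change was 0.79 (standard error 0.16, edgeR FDR = 0.0783). *Mmp13* (ENSMUSG00000050578) runs from 7272514 to 7283331 on the plus strand of chromosome 9, GRCm38.

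**Figure D2:**
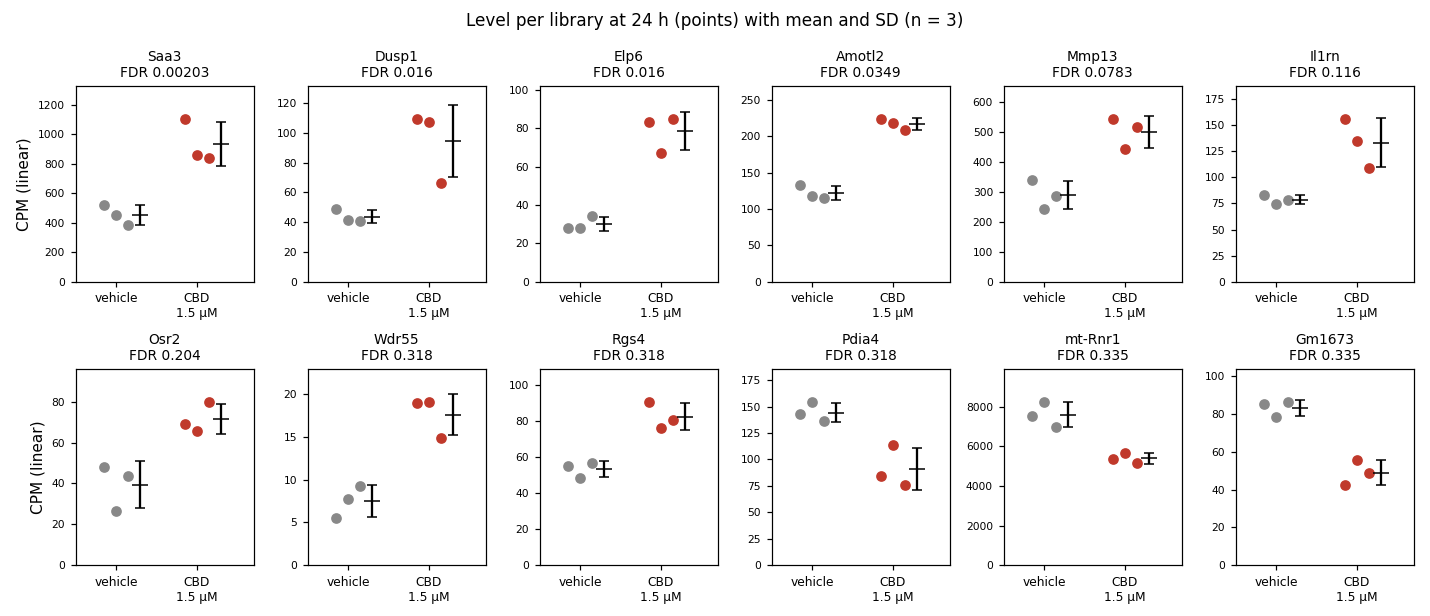
Points give the level in CPM (linear axis from 0) of each library at 24 h, vehicle in grey and CBD 1.5 µM in red, for the 5 genes that passed an FDR of 0.1 and 7 that did not, and bars give the mean and SD of 3 libraries. The groups do not overlap in any of the 12 genes, which was a condition for choosing the 7. In Dusp1 the lowest CBD point at 66.6 CPM sits apart from the other 2.

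The share of reads that fell outside annotated genes moved with the groups, and 0 of the 5 calls passed when it entered the fit. As a share of uniquely mapped reads it was 20.4%, 19.3% and 19.6% in the CBD libraries and 20.9%, 21.1% and 22.2% in the vehicle libraries, with p = 0.1 in an exact two-sided permutation test, the smallest p that 20 splits of 6 libraries allow. When the edgeR fit took this share as a covariate, 0 genes passed an FDR of 0.1 and 610 had an unadjusted p below 0.05. The log2 fold changes of *Saa3* and *Elp6* were then 1.10 (standard error 0.22, edgeR FDR = 0.255) and 1.33 (standard error 0.38, edgeR FDR = 0.921). Those of *Dusp1*, *Amotl2* and *Mmp13* were 1.19, 0.84 and 0.84 (edgeR FDR = 0.921 each), no smaller than without the covariate. Their standard errors were larger, at 0.29, 0.24 and 0.24 against 0.19, 0.16 and 0.16 without it. Whether the share has a part in the 5 differences was not tested apart from this fit. The number of calls also rested on single libraries. It was 1 without A19 or A29, 2 without A20 or A30, and 13 without A16. That library is of 3 µM, in neither group compared, and enters through the shared filter, scaling and estimate of the spread. *Saa3* stayed below an FDR of 0.1 in all 15 fits that left out 1 library, *Dusp1* and *Elp6* in 11, *Amotl2* in 10 and *Mmp13* in 6.

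**Figure D3:**
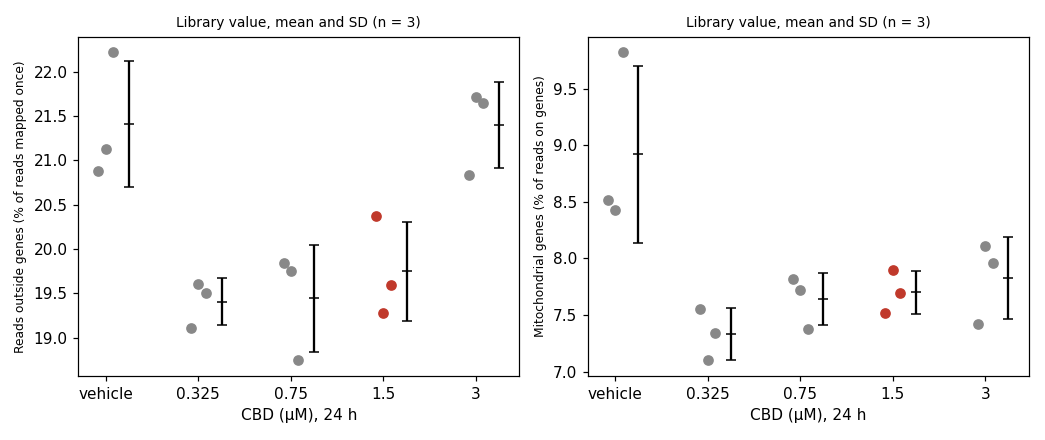
Points give, for each library of 24 h, the share of uniquely mapped reads outside annotated genes (left) and of gene reads on mitochondrial genes (right), in percent on axes that do not start at 0, with the mean and SD of 3 libraries beside them. The CBD 1.5 µM libraries, in red, lie between 19.3% and 20.4% outside genes, below the vehicle libraries at 20.9% to 22.2%, and the mean of 3 µM equals that of the vehicle at 21.4%.

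Reads counted on genes ranged from 2192094 to 3640723 in the CBD libraries and from 2942410 to 4162843 in the vehicle libraries. The mitochondrial genome took 7.70 ± 0.19% of gene reads with CBD and 8.92 ± 0.78% with vehicle (SD, n = 3 each, exact permutation p = 0.1, two-sided, the smallest possible). Of 18 neuronal markers, 10 were above 1 CPM, led by *Tubb3* at 54.3 CPM and *Eno2* at 42.0 CPM, while *Dcx*, *Elavl4* and *Nefh* had 0 reads. The neuronal markers summed to 196 to 198 CPM with CBD and 200 to 210 CPM with vehicle. Of 22 hypothalamic markers, 12 had 0 reads in the 6 libraries, *Npy*, *Avp* and *Th* among them, and only *Insr*, *Esr1* and *Gnrh1* were above 1 CPM. By contrast 14 of 15 mesenchymal markers were above 1 CPM and summed to 12140 to 12346 CPM with CBD and 12643 to 12752 CPM with vehicle, led by *S100a4*, *Vim* and *Col1a1*. The label of a hypothalamic neuronal line thus went with low neuronal and mostly absent hypothalamic markers and with abundant mesenchymal ones. Of 9 astrocyte markers, 6 were above 1 CPM, led by *Sox9* at 178 CPM and *Gja1* at 34.9 CPM, while *Gfap* and *Aqp4* had 0 reads. Of 10 microglia markers, 5 were above 1 CPM, led by *Tmem119* at 285 CPM, *Cx3cr1* at 11.5 CPM and *Csf1r* at 10.8 CPM, while *Aif1*, *C1qa*, *C1qb* and *Itgam* had 0 reads. The sums of both lists overlapped between the groups. In bulk RNA of this kind, fewer cells of a type and less RNA per cell cannot be told apart.

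The promoters of the 5 genes that were higher with CBD are shown because the families of factors named above bind known short motifs there. Each is the 250 bases before the start annotated by RefSeq on GRCm38.p6, 5′ to 3′ on the strand of the gene, with bases of any motif found in capitals. These starts can differ from the gene bounds given above, and the Dusp1 and Amotl2 windows lie inside those bounds. The motifs, searched on both strands, were the AP-1 site of letters TGANTCA, the CRE half-site with TGACG, the palindromic E-box core written CACGTG, the site of TEAD factors with GGAATG, the box near many start sites that reads TATAAA, the C/EBP motif TTNNGCAA, the box of NF-Y with letters CCAAT, and the NF-kB motif by name. They lie at chr7:46715677-46715926 on the minus strand for Saa3, chr17:26508473-26508722 on the minus strand for Dusp1, and on the plus strand of chromosome 9 at chr9:110304942-110305191 for Elp6, chr9:102717554-102717803 for Amotl2 and chr9:7272264-7272513 for Mmp13.
Saa3: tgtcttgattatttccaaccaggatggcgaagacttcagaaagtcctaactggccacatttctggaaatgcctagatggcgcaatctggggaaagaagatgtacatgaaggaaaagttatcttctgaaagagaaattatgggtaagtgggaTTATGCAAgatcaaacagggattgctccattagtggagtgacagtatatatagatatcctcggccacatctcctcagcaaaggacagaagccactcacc
Dusp1: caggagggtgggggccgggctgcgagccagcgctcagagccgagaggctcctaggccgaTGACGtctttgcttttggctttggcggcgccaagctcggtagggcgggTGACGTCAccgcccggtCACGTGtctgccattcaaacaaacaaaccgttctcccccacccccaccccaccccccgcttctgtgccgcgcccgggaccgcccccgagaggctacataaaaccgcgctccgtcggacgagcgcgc
Elp6: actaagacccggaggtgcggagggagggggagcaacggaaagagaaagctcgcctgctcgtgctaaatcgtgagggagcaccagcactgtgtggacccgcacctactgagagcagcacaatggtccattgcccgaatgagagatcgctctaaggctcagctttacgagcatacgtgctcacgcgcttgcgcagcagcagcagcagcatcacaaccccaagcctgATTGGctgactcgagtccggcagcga
Amotl2: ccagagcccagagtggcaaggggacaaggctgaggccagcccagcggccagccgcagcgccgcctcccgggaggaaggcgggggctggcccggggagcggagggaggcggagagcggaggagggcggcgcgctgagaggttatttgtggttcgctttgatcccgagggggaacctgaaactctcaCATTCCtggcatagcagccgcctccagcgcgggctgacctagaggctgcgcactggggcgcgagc
Mmp13: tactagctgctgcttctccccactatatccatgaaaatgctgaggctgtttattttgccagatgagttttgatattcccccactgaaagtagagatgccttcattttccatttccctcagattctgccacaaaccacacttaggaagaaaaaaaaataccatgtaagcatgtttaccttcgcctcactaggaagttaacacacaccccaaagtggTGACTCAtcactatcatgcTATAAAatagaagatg
The Saa3 window held 1 C/EBP match that starts 99 bases before the annotated start, a motif present in 9.56% of 32851 promoter windows of the same length. The Dusp1 window held CRE half-sites at 191, 143 and 140 bases, the last pair overlapping, and an E-box at 126 bases before the start, against 17.8% and 6.02% of all windows. In Elp6 the match was CCAAT at 26 bases, which 33.8% of windows hold. The Amotl2 window had a TEAD match at 65 bases (12.6% of windows), and the Mmp13 window an AP-1 match at 35 bases (6.75%) and TATAAA at 16 bases (12.4%). The NF-kB motif, present in 7.25% of windows, was in none of the 5. These are matches of letters and no evidence that a factor binds.

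Among secreted inflammatory proteins *Saa3* was the 1 gene that passed the FDR in edgeR, and DESeq2 also called *Il1rn* (FDR = 0.00993), *Cxcl12* (FDR = 0.0942) and *Cxcl5* (FDR = 0.0998). Of 24 tested acute-phase, chemokine and interleukin genes, 20 had a positive log2 fold change, 10 had an unadjusted p below 0.05 in the higher direction and 0 in the lower, where 3.61% and 3.72% of all genes did. Their median log2 fold change was 0.30, against 0.00 over all genes. *Il1rn*, the antagonist of the interleukin-1 receptor, was at 156, 135 and 108.7 CPM with CBD and 83.0, 74.6 and 78.2 CPM with vehicle. Its groups were apart, with a log2 fold change of 0.75 (standard error 0.16), but the FDR of edgeR was 0.116. The neutrophil chemokine *Cxcl5* gave 35.1, 33.6 and 32.4 CPM against 22, 17.2 and 16.5 CPM (log2 fold change 0.84 ± 0.21 SE, edgeR FDR = 0.335). *Cxcl12*, the ligand of Cxcr4 and by level the most abundant chemokine named here, stood at 2050, 1769 and 2054 CPM against 1579, 1203 and 1369 CPM. Its log2 fold change of 0.50 had a standard error of 0.13 (edgeR FDR = 0.335). Complement *C3* (log2 fold change 0.53), haptoglobin *Hp* (0.68), *Cxcl1* (0.94), *Lcn2* (0.44) and the cytokine-signal inhibitor *Socs3* (0.64) each had a p below 0.05 without adjustment and edgeR FDR values between 0.519 and 0.574. *Saa2*, the close relative of *Saa3*, was low at 8.40 ± 1.90 CPM and 3.63 ± 1.69 CPM (SD, n = 3 each). Among 16 tested NF-kB subunits and inhibitors 0 passed the FDR in edgeR, and the median was 0.12. The deubiquitinase *Cyld* and *Nfkbib*, 2 of the 16 (12.5%), had p below 0.05 in the higher direction, against 3.61% of all genes.

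MAP kinase phosphatases and other feedback inhibitors had 9 positive and 8 negative log2 fold changes among 17 tested genes. An unadjusted p below 0.05 was found in 3 (17.6%) on the higher side and 1 (5.88%) on the lower, against 3.61% and 3.72% of all genes. The 3 higher were phosphatases. They were *Dusp1*, which passed the FDR, *Dusp6* at 54.4 ± 8.07 against 29.5 ± 10.6 CPM (log2 fold change 0.87, edgeR FDR = 0.446) and *Dusp5* (0.55). The lower gene, *Spry4* (−1.60), was near 3 CPM or less and is not a phosphatase. The median of the list was 0.01. Among 23 immediate-early genes 0 passed the FDR in edgeR. *Junb*, an AP-1 subunit, was at 275 ± 64.0 against 175 ± 31.7 CPM (SD, n = 3 each, log2 fold change 0.65, edgeR FDR = 0.474), and *Jund* of the same family had a log2 fold change of −0.44.

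*Mmp13* was the 1 gene past the FDR among 16 proteases of the matrix and their inhibitors. In that list 3 (18.8%), *Mmp13* among them, had an unadjusted p below 0.05 in the higher direction, against 3.61% of all genes. The other two were stromelysin 3, *Mmp11*, at 63.2 ± 5.16 against 41.3 ± 4.28 CPM (log2 fold change 0.61, edgeR FDR = 0.515), and *Adamts1* (0.39). Of 30 tested collagens and other matrix proteins, 22 had a negative log2 fold change and 8 a positive one, and the median was −0.07. An unadjusted p below 0.05 was found in 2 (6.67%) on the lower side, against 3.72% of all genes, and 0 passed the FDR in edgeR. *Col11a1*, at 116 ± 8.93 CPM with CBD and 156 ± 15.9 CPM with vehicle (SD, n = 3 each), had the smallest p of these (log2 fold change −0.43, edgeR FDR = 0.482).

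In the Hippo pathway *Amotl2* stood alone past the FDR among 26 genes, and the median log2 fold change was 0.05. An unadjusted p below 0.05 was found in 1 (3.85%) on the higher side and 1 (3.85%) on the lower. These shares were near the 3.61% and 3.72% of all genes. The YAP target *Ankrd1* (0.39) and *Yap1* itself (0.35) had edgeR FDR values of 0.698 and 0.712, and the TEAD factor *Tead3* had a log2 fold change of −0.39. Of 14 genes of Elongator and transfer RNA processing, *Elp6* passed the FDR. In this list 2 (14.3%), *Elp6* among them, had an unadjusted p below 0.05 on the higher side. On the lower side 0 did, against 3.61% and 3.72% of all genes. *Rtcb*, the ligase that joins spliced transfer RNAs, had a p below 0.05 (log2 fold change 0.33, edgeR FDR = 0.519), *Elp2* stood at 0.19, and *Elp4*, with about 5 CPM or less, at −1.04.

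**Figure D4:**
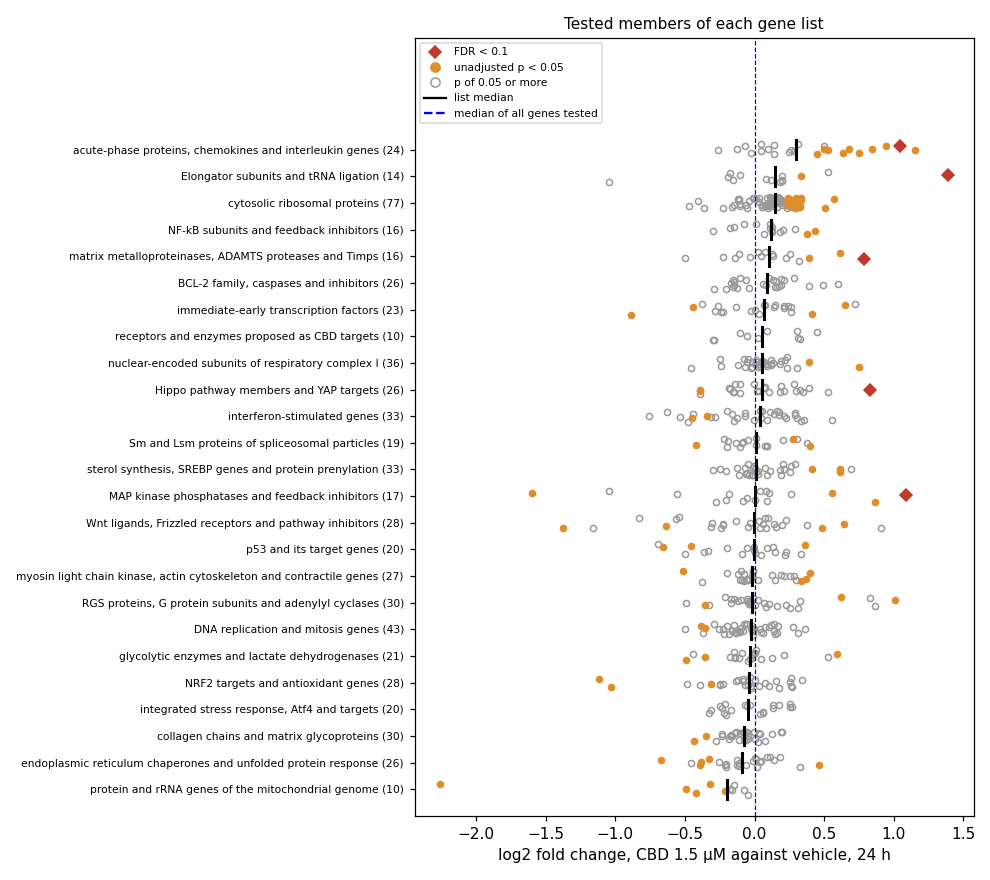
Each point is the log2 fold change of CBD 1.5 µM over vehicle at 24 h for 1 tested gene of a list (number tested in brackets), red where the FDR was below 0.1, orange where the unadjusted p was below 0.05 and open otherwise, with the list median as a black bar. The acute-phase list has the highest median at 0.30, and all 10 tested protein and rRNA genes of the mitochondrial genome lie below 0 with a median of −0.20.

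The 10 tested protein and rRNA genes of the mitochondrial genome all had negative log2 fold changes, and 0 passed the FDR in edgeR. DESeq2 called *mt-Rnr1* (FDR = 0.0994), edgeR on the 6 libraries alone *mt-Nd3*, and edgeR with no filter *mt-Rnr1*, *mt-Nd2* and *mt-Nd3*. With no filter edgeR also called *mt-Te*, a mitochondrial gene outside this list (log2 fold change −2.05, FDR = 4.48e-06). The median log2 fold change of the 10 listed genes was −0.20, and 5 of the 10 had an unadjusted p below 0.05, against 3.72% of all genes in that direction. *mt-Rnr1*, the ribosomal RNA of the small mitochondrial subunit, was at 5368, 5688 and 5155 CPM with CBD and at 7555, 8250 and 7000 CPM with vehicle. The groups were apart, with a log2 fold change of −0.49 (standard error 0.12) and an edgeR FDR of 0.335. *mt-Nd2*, a subunit of complex I, had 9161, 10815 and 7860 CPM against 11211, 13724 and 12334 CPM (log2 fold change −0.42 ± 0.12 SE, edgeR FDR = 0.454). The large ribosomal RNA *mt-Rnr2* stood at −0.32 and *mt-Cytb* at −0.05. Of 36 nuclear-encoded genes of complex I, 2 (5.56%) had a p below 0.05 on the higher side, near the 3.61% of all genes, *Ndufb3* with a log2 fold change of 0.75 and *Ndufa6* with 0.39.

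Of 77 tested ribosomal protein genes, 61 had a positive log2 fold change, 0 passed the FDR in edgeR, and the median was 0.15. An unadjusted p below 0.05 was found in 16 (20.8%) in the higher direction and 0 in the lower, against 3.61% and 3.72% of all genes. On the 6 libraries alone edgeR called *Rpl5* (FDR = 0.0962). *Rpl23* was at 1291 ± 122 CPM with CBD and 911 ± 103 CPM with vehicle (SD, n = 3 each, log2 fold change 0.50, edgeR FDR = 0.474), and *Rpl5* at 234 ± 17.3 against 157 ± 17.5 CPM (0.57, edgeR FDR = 0.511). Many pseudogene copies share their reads, so that single members are uncertain. In the fit that took the off-gene read share as a covariate, the median of this list was −0.04 and 2 genes had p below 0.05. The share was lower in all 3 CBD libraries, as given above, and its part in these counts was not tested further. In the same covariate fit, *Il1rn*, *Cxcl12* and *Cxcl5* had log2 fold changes of 0.87, 0.61 and 0.80. Those of *mt-Rnr1*, *mt-Rnr2*, *mt-Nd2* and *mt-Nd3* were −0.56, −0.41, −0.38 and −1.27. Their edgeR FDR values were 0.921 for *Il1rn* and 0.924 for the others.

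Of 26 tested chaperones and stress genes of the endoplasmic reticulum, 4 (15.4%) had an unadjusted p below 0.05 on the lower side and 1 (3.85%) on the higher side, against 3.72% and 3.61% of all genes. The list had 15 negative and 11 positive log2 fold changes, a median of −0.09 and 0 members past the FDR in edgeR, and DESeq2 called *Pdia4* (FDR = 0.0703). *Pdia4*, a disulfide isomerase of this compartment, was at 83.8, 114 and 75.5 CPM with CBD and at 143, 154 and 136 CPM with vehicle. The second CBD library was the closest to the vehicle, and the groups did not overlap (log2 fold change −0.67 ± 0.16 SE, edgeR FDR = 0.318). *Pdia3*, a second isomerase, was at 343 ± 7.09 against 448 ± 19.3 CPM (log2 fold change −0.39, edgeR FDR = 0.511), and the chaperone *Hsp90b1* at 435 ± 16.1 against 571 ± 51.6 CPM (−0.39, edgeR FDR = 0.515). In the integrated stress response, 0 of 20 genes had a p below 0.05 in either direction, and *Atf4* stood at −0.23. Of 26 genes in the apoptosis list, which does not hold *Bbc3*, 0 had a p below 0.05. The list of p53 and its targets had 20 tested genes. *Bbc3* (log2 fold change 0.36), or 5%, had a p below 0.05 on the higher side, against 3.61% of all genes. *Phlda3* (−0.46) and *Trp53* itself (−0.66), or 10%, had one on the lower side, against 3.72%. The median was −0.01, and 0 passed the FDR in edgeR.

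Genes of antioxidant defence, interferon responses, sterol synthesis, glycolysis, contraction, small nuclear ribonucleoproteins, Wnt signalling, G-protein regulation and replication had 0 members past the FDR in edgeR and medians between −0.04 and 0.04. DESeq2 called *Rgs4* (FDR = 0.0703), *Mylk*, *Ldhb* and *Nkd2* (FDR = 0.0873 each) and *Fzd8* (FDR = 0.0998) of these lists, all higher. Of 28 antioxidant genes 3 (10.7%) had a p below 0.05 on the lower side, against 3.72% of all genes. Among them were the ferritin light chain *Ftl1* (log2 fold change −1.12) and the lipid peroxidase *Gpx4* (−1.03), both of which have pseudogene copies. In sterol and prenyl synthesis 3 of 33 (9.09%) were higher at p below 0.05, against 3.61% of all genes. These were the farnesyltransferase subunit *Fnta* (0.62), squalene synthase *Fdft1* (0.61) and *Hmgcs1* (0.41). *Mylk*, the kinase of myosin light chain, was at 321, 320 and 298 CPM with CBD and 228, 239 and 245 CPM with vehicle (log2 fold change 0.40 ± 0.11 SE, edgeR FDR = 0.406). In interferon responses 2 of 33 genes (6.06%) had a p below 0.05, both lower, against 3.72% of all genes, with *Ifitm2* at −0.34. Of 43 replication and mitosis genes, 2 (4.65%) had a p below 0.05 on the lower side, near the 3.72% of all genes, *Cenpe* (−0.39) and *Cenpf* (−0.35).

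Receptors and enzymes proposed as CBD targets gave few reads. Of 37 genes, 14 had 0 reads in all 6 libraries, among them the cannabinoid receptors *Cnr1* and *Cnr2*, *Gpr55*, *Trpv1* and the serotonin receptor *Htr1a*. With 18407605 reads on genes, a count of 0 allows 3 reads, or 0.163 CPM, by counting error only. *Trpv2* had 5 reads in the CBD libraries and 21 in the vehicle libraries, and *Pparg* 21 and 24, both too few to test. Of the 10 that were tested, 0 had a p below 0.05, and the log2 fold changes ran from −0.30 to 0.45. *Vdac1*, the channel of the outer mitochondrial membrane, was the most read of the list, with 1672 reads in the CBD libraries and 1942 in the vehicle libraries. The read counts of *Trpv2*, *Pparg* and *Vdac1* are not scaled for depth. Gene reads per library ran from 2192094 to 3640723 with CBD and from 2942410 to 4162843 with vehicle. The lipid carrier *Fabp5* had a log2 fold change of 0.30 (standard error 0.17, edgeR FDR = 0.739).

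Other genes on the higher side were named by a rule that required groups that did not overlap, and they did not pass the FDR in edgeR. *Osr2*, a zinc-finger factor of limb and palate development, was at 68.9, 65.5 and 79.8 CPM with CBD and 48.1, 26.3 and 43.6 CPM with vehicle (log2 fold change 0.85 ± 0.19 SE, edgeR FDR = 0.204). *Rgs4*, which speeds GTP hydrolysis on G-protein alpha subunits, gave 90.6, 75.9 and 80.6 CPM against 54.8, 48.6 and 56.9 CPM (0.62 ± 0.15 SE, edgeR FDR = 0.318). *Ppp1r3c*, which brings protein phosphatase 1 to glycogen, had 21.6, 29 and 24.3 CPM against 15.9, 9.45 and 9.26 CPM (1.08 ± 0.26 SE, edgeR FDR = 0.326). None of the 3 passed the FDR in edgeR, while DESeq2 called *Osr2* (FDR = 0.0226) and *Rgs4* (FDR = 0.0703). The Wnt receptor *Fzd8* stood at 0.64, the Wnt inhibitor *Nkd2* at 0.48, lactate dehydrogenase B, *Ldhb*, at 0.59, the nucleolar protein *Wdr55* at 1.24, *Elobl* at 0.89 and *Lrrc40* at 0.66, with edgeR FDR values of 0.318 to 0.335.

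On the lower side 0 genes passed the FDR in edgeR. DESeq2 called 4 lower, *Pdia4* (FDR = 0.0703), *mt-Rnr1* (FDR = 0.0994), *Gm1673* and *AY036118* (FDR = 0.0998 each), and edgeR on the 6 libraries alone called 6, namely *Rex1bd*, *Gm1673*, *AY036118*, *Pdia4*, *Ftl1* and *mt-Nd3*. *Gm1673* was at 42.4, 55.6 and 48.8 CPM with CBD and at 85.3, 78.3 and 86.5 CPM with vehicle (log2 fold change −0.77 ± 0.20 SE, edgeR FDR = 0.335). *Zfp608*, a zinc-finger protein, was at 37.4, 39.0 and 36.1 CPM against 56.2, 55.7 and 57.3 CPM (−0.59 ± 0.16 SE, edgeR FDR = 0.361). *Galnt7*, which starts O-linked sugar chains, was at 13.1, 14.1 and 14 CPM against 22.8, 23.3 and 24.0 CPM (−0.76 ± 0.22 SE, edgeR FDR = 0.447). The groups of these 3 genes were apart, which was a condition for naming further genes on this side. *Smpd3*, a neutral sphingomyelinase (−1.34), *Fam84b* (−1.11), the ubiquitin-conjugating enzyme *Ube2s* (−1.08), *Cox6b2* (−1.08), the exonuclease *Eri3* (−0.86) and the lipid-transfer protein *Pitpnm2* (−0.64) had edgeR FDR values between 0.361 and 0.461. A list of altered genes for this dose and time was chosen by the study on these same libraries, so its members are not independent evidence of direction. In the present fit 5 of its 31 members passed the FDR, and all 31 had an unadjusted p below 0.05, of which 22 were higher and 9 lower.

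At 24 h the other doses were read against the same 3 vehicle libraries, so the folds of the doses share their controls and are given side by side. *Saa3* was at 986 ± 175 CPM at 0.325 µM, 939 ± 26.8 CPM at 0.75 µM, 933 ± 148 CPM at 1.5 µM and 647 ± 145 CPM at 3 µM (SD, n = 3 each). Its log2 fold changes over vehicle were 1.12, 1.05, 1.04 and 0.51, with edgeR FDR values of 0.000504, 0.000862, 0.00203 and 0.442. *Mmp13* had log2 fold changes of 0.86, 0.78, 0.79 and 0.17 in the same order (edgeR FDR 0.0281, 0.0704, 0.0783 and 0.777). In both genes the means of the lower 3 doses differed by less than the SD at 1.5 µM, and the mean of 3 µM was nearer to the vehicle. *Dusp1* gave 1, 0.84, 1.09 and 0.52 (edgeR FDR 0.0281, 0.112, 0.016 and 0.507) and *Amotl2* 0.71, 0.66, 0.83 and 0.29 (edgeR FDR 0.1, 0.156, 0.0349 and 0.573). *Elp6* had another order. It was at 26.7 ± 5.30 CPM at 0.325 µM, 76.6 ± 15 CPM at 0.75 µM, 78.5 ± 9.83 CPM at 1.5 µM and 114 ± 57.6 CPM at 3 µM (SD, n = 3 each), where the 3 libraries of 3 µM were at 178, 65.3 and 99.4 CPM. The libraries of 0.325 µM overlapped those of the vehicle, and those of 0.75, 1.5 and 3 µM lay above them.

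**Figure D5:**
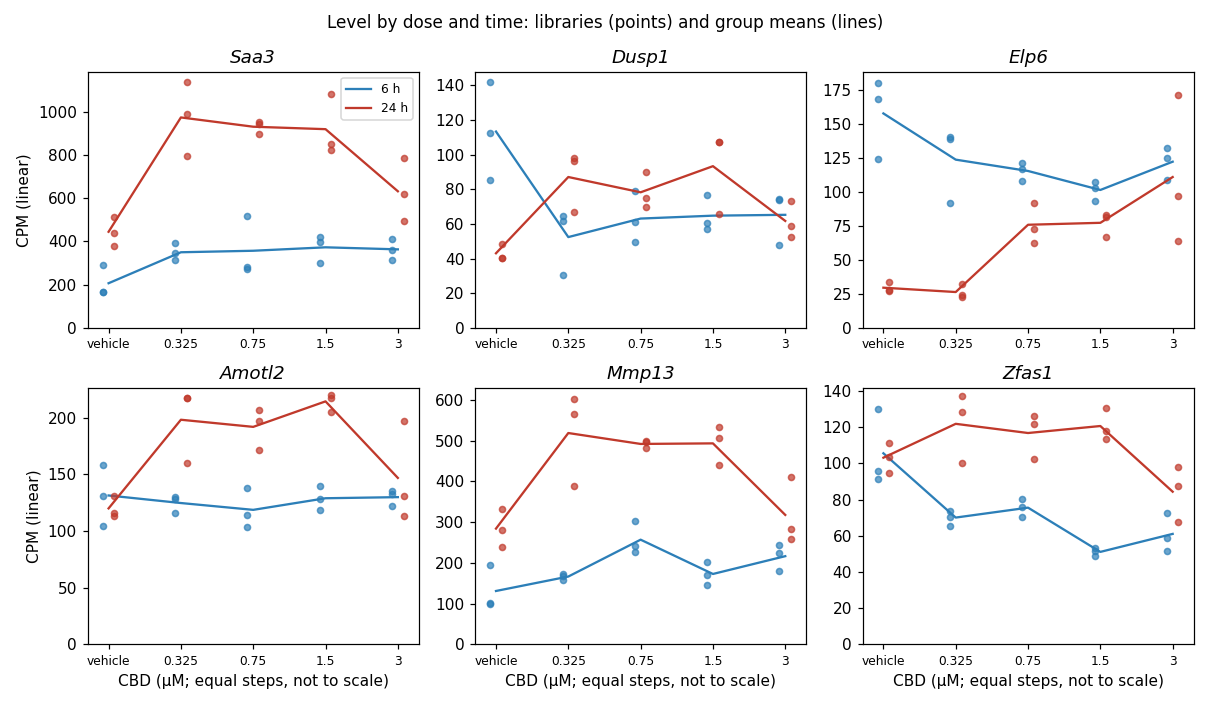
Points give the level of each library in CPM, scaled over 30 libraries, for the 5 genes that passed against vehicle and for Zfas1, by CBD dose in equal steps, at 6 h in blue and 24 h in red, with lines through the group means. At 24 h Saa3, Dusp1, Amotl2 and Mmp13 have higher means at 0.325 to 1.5 µM than at 3 µM, while Elp6 is at the level of the vehicle at 0.325 µM and above it from 0.75 µM.

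Between 1.5 µM and 0.75 µM, 0 genes, or 0% of 12118, passed an FDR of 0.1 in edgeR, with 465 at an unadjusted p below 0.05, and DESeq2 called 0 with 411 at p below 0.05. Between 1.5 µM and 0.325 µM, 1 gene passed, or 0.00825%, with 386 at p below 0.05. The gene was *Elp6*, higher at 1.5 µM by 1.57 on the log2 scale (standard error 0.24, edgeR FDR = 0.00637), and it did not pass without A21, A25 or A26.

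Against 3 µM, 474 genes passed the FDR, or 3.91%, of which 216 (1.78%) were higher and 258 (2.13%) lower at 1.5 µM. *Mmp13* was higher at 1.5 µM by 0.62 (standard error 0.16, edgeR FDR = 0.0696), *Saa3* by 0.53 (standard error 0.15, edgeR FDR = 0.0754), *Amotl2* by 0.53 (standard error 0.16, edgeR FDR = 0.0823) and *Cxcl12* by 0.44 (standard error 0.13, edgeR FDR = 0.0827). *Dusp1* at 0.57 and *Elp6* at −0.54 had edgeR FDR values of 0.109 and 0.204. These values share the 1.5 µM libraries with the comparison against vehicle. The centromere factor *Oip5* had the smallest p, at 14, 13.7 and 12.7 CPM at 1.5 µM and 2.51, 2.99 and 3.13 CPM at 3 µM (2.21 higher at 1.5 µM on the log2 scale, FDR of edgeR 0.0101). Vehicle libraries had 10.7, 8.10 and 10.3 CPM of *Oip5*, so 3 µM was the group that stood apart. The next 4 were lower at 1.5 µM, namely the processed pseudogene *Gm8472* (−1.16), the clathrin adaptor subunit *Ap2s1* (−0.69), smoothelin, *Smtn* (−0.92), and ENSMUSG00000119584 (−0.92). *Gm8472* read 70.7, 88.3 and 74.7 CPM at 1.5 µM and 233, 114 and 177 CPM at 3 µM.

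The share of genes that were lower at 1.5 µM was higher among pseudogenes than among protein-coding genes. Of 534 tested pseudogenes, 60 (11.2%) were lower and 2 higher at 1.5 µM than at 3 µM, while 209 (1.97%) of 10594 protein-coding genes were higher and 185 (1.75%) lower. Reads on pseudogenes may come from their parent genes. Of 23 tested immediate-early genes, 1 was higher and 2 were lower at 1.5 µM than at 3 µM past the FDR. Of all genes 1.78% were higher and 2.13% lower. The higher gene was *Junb*, by 0.76 on the log2 scale (edgeR FDR = 0.0696). In the integrated stress response 0 of 20 were higher and 2 lower, *Atf5* among them (log2 fold change −0.83, edgeR FDR = 0.0341). Outside these 2 lists, the NF-kB inhibitor *Nfkbia* was higher at 1.5 µM by 0.58 (edgeR FDR = 0.0696) and *Socs3* by 0.90 (edgeR FDR = 0.0717). Of 24 tested acute-phase, chemokine and interleukin genes, 4 were higher and 0 lower at 1.5 µM, against 1.78% and 2.13% of all genes. The Hippo list had 3 higher and 0 lower of 26, and the contractile list 3 higher and 0 lower of 27. The count of 474 rested on single libraries: it was 0 without A16, 3 without A18, 1 without A19, 121 without A21, 144, 146 and 272 without A22, A23 and A24, 223 without A26, and 1692 without A17. It was 0 when only the libraries of 1.5 and 3 µM entered the edgeR fit, and 0 when the off-gene read share entered as a covariate, with 1467 genes at p below 0.05. That share was 19.7 ± 0.56% at 1.5 µM and 21.4 ± 0.49% at 3 µM (SD, n = 3 each).

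The change at 1.5 µM differed between 24 h and 6 h in 3 of 12790 genes, or 0.0235%, by the interaction test of edgeR over all 30 libraries, with 892 genes at an unadjusted p below 0.05. The 3 genes were *Elp6*, *Dusp1* and the long non-coding RNA *Zfas1*. Scaled over 30 libraries, *Elp6* at 6 h was at 102 ± 7.16 CPM with CBD and 158 ± 29.5 CPM with vehicle (SD, n = 3 each), a log2 fold change of −0.63 (edgeR FDR = 0.2). At 24 h the levels on this scale were 77.4 ± 9 and 29.6 ± 3.56 CPM, and the difference between the times was 2.02 (standard error 0.31, edgeR FDR = 0.00147). The vehicle itself was thus far lower at 24 h than at 6 h. *Dusp1* was at 64.7 ± 10.7 CPM in CBD and 113 ± 28.4 CPM in vehicle at 6 h (log2 fold change −0.82, edgeR FDR = 0.252). At 24 h it was at 93.3 ± 24.2 and 43.0 ± 4.50 CPM, and the difference between the times was 1.92 (standard error 0.32, edgeR FDR = 0.00436). Its vehicle mean was also lower at 24 h, as in *Elp6*. With CBD the mean of *Dusp1* was higher at 24 h than at 6 h, and that of *Elp6* lower.

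*Zfas1*, a host transcript of small nucleolar RNAs on chromosome 2 (167062934 to 167065862, plus strand, GRCm38), fell at 6 h. It was at 53.2, 51.4 and 48.6 CPM with CBD and at 91.2, 95.5 and 130 CPM with vehicle. No library of CBD came near the vehicle libraries, and the log2 fold change was −1.06 (standard error 0.17, edgeR FDR = 0.0168). At 24 h it was at 121 ± 8.90 CPM with CBD and 103 ± 8.47 CPM with vehicle (SD, n = 3 each, log2 fold change 0.22, edgeR FDR = 0.781), and the difference between the times was 1.29 (standard error 0.22, edgeR FDR = 0.00436). *Zfas1* overlaps *Znfx1* on the opposite strand in the annotation, and whether strand was used in counting is not given in the sources used here. All 3 genes passed in every fit that left out 1 library, while the count of calls was 21, 7 and 9 without A1, A2 and A3 of the vehicle at 6 h and 5 without A14 or A28.

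For the other 3 genes that were higher with CBD than with vehicle at 24 h, the change at 6 h was not shown to differ. *Saa3* was at 397, 303 and 420 CPM with 1.5 µM at 6 h and at 165, 164 and 291 CPM with vehicle. The groups did not overlap, with a log2 fold change of 0.84 (edgeR FDR = 0.2), and the difference between the times was 0.21 (edgeR FDR = 0.923). *Mmp13* stood at 173 ± 29 against 131 ± 54.7 CPM at 6 h (SD, n = 3 each), and its difference between the times was 0.42 (edgeR FDR = 0.79). *Amotl2* at 6 h was at 129 ± 10.4 against 131 ± 27 CPM (SD, n = 3 each), and its difference between the times of 0.87 did not pass (edgeR FDR = 0.261).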

How the data were processed

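The deposited values are raw counts of reads per Ensembl gene (release 109), 1 table per library. The authors sequenced QuantSeq 3′ mRNA-Seq FWD libraries, trimmed reads with Flexbar 3.5.0, mapped them with STAR 2.7.5c to GRCm39 and counted them with HTSeq 1.99.2. The kit keeps strand and reads the 3′ ends, so levels between genes are not divided by length. Only reads with 1 alignment were counted, which lowers genes with close copies.

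Counts were fitted in R 4.3.3 with edgeR 4.0.16 and limma 3.58.1 (filterByExpr, TMM, quasi-likelihood F-test) as a mean per group over the 15 libraries of 24 h, or over all 30 for the interaction with time. Benjamini-Hochberg adjustment ran over all genes tested, at a threshold of 0.1. CPM use the TMM-scaled library sizes. The genes named are all that passed, the next 12 in each direction with at least 10 CPM and groups that did not overlap, those of the study list, the 4 members of smallest p in each list and the 5 of smallest p in each further contrast. *Nfkbia*, *Atf5*, *Rex1bd*, *mt-Te*, *Cxcl1*, *Hp* and other list members outside this rule were named after their values were seen. The members and lists were chosen with earlier results of these data known. Reads on genes ranged from 2192094 to 4162843 over the 6 libraries, and intervals and floors cover counting error only. Symbols, positions and promoters are of GRCm38 (GENCODE M21, RefSeq). The steps were tested on simulated data.

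Alternatives were DESeq2 1.42.0, RLE scaling, no filter and a stricter filter, no mitochondrial genes, the share of reads that fell outside genes as a covariate, all 30 libraries, only the groups compared, and each library left out. The log2 read total as a covariate was added after seeing the data.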

Additional observations from a re-analysis of the deposited data

Results flagged for a closer look

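The change at 1.5 µM differed between 24 h and 6 h in 3 genes by the interaction test of edgeR with Benjamini-Hochberg adjustment over 12790 genes. The log2 fold change of CBD over vehicle was larger at 24 h by 2.02 in *Elp6* (FDR = 0.00147), by 1.92 in *Dusp1* (FDR = 0.00436) and by 1.29 in *Zfas1* (FDR = 0.00436). The mean in vehicle was lower at 24 h than at 6 h in *Elp6* and *Dusp1*, and this fall is part of the difference by construction. With CBD the mean of *Elp6* was also lower at 24 h and that of *Dusp1* higher. The change in vehicle was not tested on its own.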

How the results depend on the processing

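No paired analysis was possible because the labels give the libraries no replicate numbers shared between groups. Against vehicle, the 5 calls became 44 with no filter on low counts, 16 with only the groups compared, 19 with DESeq2, 0 with the off-gene read share as a covariate and 1 with the log2 read total as a covariate, which was added after seeing the data. Left out in turn, single libraries gave 1 to 13. Against 0.325 µM the count of 1 became 2 with no filter, and leaving out libraries gave 0 to 1. Against 0.75 µM the count of 0 became 6 with only the groups compared, and leaving out libraries gave 0 to 0. Against 3 µM the 474 calls became 780 with no filter, 58 with all 30 libraries, 0 with only the groups compared, 0 with the off-gene read share, 1 with the log2 read total and 668 with DESeq2, and leaving out libraries gave 0 to 1692. For the difference between the times, the 3 calls became 54 with no filter, 20 with DESeq2, 5 with the off-gene read share, and leaving out libraries gave 3 to 21. With the off-gene read share, 3 log2 fold changes against vehicle that were not called turned sign, to −0.00807 for *Pfkfb3*, −0.0155 for *Birc3* and −0.0794 for *Lss*. RLE scaling and leaving out mitochondrial genes kept each count within 1.5 times. The cause of these moves was not tested. With 3 libraries a group and a common biological coefficient of variation of 0.150, small changes of low genes were not detectable at this depth.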
